A study of Mus musculus with 10 samples.

Results

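The genes described here are regulators of chromatin and of DNA methylation in mouse regulatory T cells (Treg cells), compared between Treg cells with and without the transcription factor Helios. They were taken by symbol, as the numbered or lettered genes of the Hdac, Sirt, Kdm, Setd, Dnmt, Tet, Chd, Smarc and Arid families together with Ezh1, Ezh2, Suz12, Eed and Ep300. The rule uses no values of the genes, but earlier results of these data were known when it was chosen. Kdm5c, Kdm5d and Kdm6a, which lie on the sex chromosomes, were left out. This gave 84 of the 13252 genes in the deposited table, and 82 of them averaged at least 10 normalized counts across the 10 libraries, the minimum for testing. Smarca5-ps is annotated as a pseudogene of Smarca5, so reads of this pair may have been divided between them.

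There were 5 RNA-seq libraries of CD4+RFP+GFP+ Treg cells, labelled Helios+, and 5 of CD4+RFP+GFP- Treg cells, labelled Helios-. All 10 came from CD4+RFP+ cells, and the labels tie GFP to Helios, the product of Ikzf2. They do not say what RFP reports, nor the strain, age or number of the mice, while the title calls the cells Foxp3+ and the design text speaks of wild-type and knockout cells. Each sample was grouped by its own label, so the differences are between cell populations. Whether separate mice gave the samples of each group is not stated, so p-values reflect only sample-to-sample spread, part or all of which may be technical.

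Chromatin regulators act at several layers. Dnmt enzymes write cytosine methylation and Tet enzymes oxidise it, which leads to its loss. In Treg cells, demethylation of a conserved intronic enhancer of Foxp3 is known to hold the lineage stable through cell division. Acetyltransferases such as Ep300 and the opposing Hdac and Sirt deacetylases set histone acetylation and also act on Foxp3 protein. Polycomb repressive complex PRC2, the Setd family and the Kdm demethylases set histone methylation. Most Chd and Smarc proteins, and Arid1a, Arid1b and Arid2 of the Arid family, belong to ATP-driven machines that move nucleosomes. Several members also work outside chromatin: Setd3 methylates actin, Sirt3, Sirt4 and Sirt5 are mitochondrial, and Hdac6 acts on tubulin.

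Recovered reads ranged from 4872348 to 6948692 per library, of which the ribosomal RNA precursor Rn45s took 8.54% to 18.6%. The lowest share was that of Helios- replicate 1. The highest was that of Helios- replicate 3, and the next highest was 13.8% in Helios+ replicate 3. Ikzf2 ranged over 9667 to 10906 normalized counts in Helios+ and 418.2 to 572.2 in Helios- libraries, and Foxp3 3284 to 3764 and 3296 to 3833 (exact two-sided permutation p = 0.0079 and 0.754, where 0.0079 is the smallest that 252 assignments can give). On principal component 1 lay 56.7% of the variance between libraries. The normalized counts are reads divided by 1 size factor per library.

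Most chromatin regulators differed little between the populations, and a minority moved in both directions. Of the 82 tested, 9 rose and 14 fell in Helios+ cells, or 28.0% in all (limma, Benjamini-Hochberg adjusted p under 0.05 over all genes tested). Among all 10718 genes tested the share was 24.8%, with 14.1% higher and 10.7% lower, against 11% and 17.1% of the members. These shares are also the background for the family counts below, in families of at most 13 genes. Libraries of the 2 populations did not overlap for 21 members, or 25.6%, against 19.5% of all genes. Changes were small: the median absolute log2 change was 0.15 for the members and 0.184 for all genes. By at least 0.5 in either direction changed 7 members (8.54%), against 18.1% of all genes. These sizes were not compared at equal abundance. A mean of at least 1000 normalized counts was reached by 35 of the 82 members, but by 1202 of the 10718 genes. Every log2 change is the Helios+ value minus the Helios- value of log2(normalized count + 1), a scale that shrinks the differences of scarce genes. In bulk libraries, fewer cells that express a gene and less of its RNA per cell cannot be told apart.

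Of the 14 members that fell, 9 were abundant. Of 35 members with a mean of at least 1000 normalized counts, 2 rose and 9 fell (5.71% and 25.7%), beside 8.07% and 22.1% of the 1202 genes at that level. Of 29 members between 200 and 1000, 5 rose and 3 fell (17.2% and 10.3%), beside 12% and 13.7% of 3748 genes. Of 18 members between 10 and 200, 2 rose and 2 fell (11.1% each), beside 16.7% and 6.29% of 5768 genes. TMM scaling gave 9 members higher and 12 lower, and quantile normalization 15 and 10. With other test models on the recovered reads, edgeR gave 11 and 10 and DESeq2 11 and 19. Quantile normalization ended the calls of Arid2, Chd3, Chd8 and Dnmt1 and added Chd1, Chd4, Hdac1, Hdac7, Kdm6b and Smarcc1 as higher. With the replicate number as a block, 15 members were higher and 22 lower (45.1%, where 37.3% of all genes were called), and all 23 calls were kept while 14 were added.

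**Figure D1:**
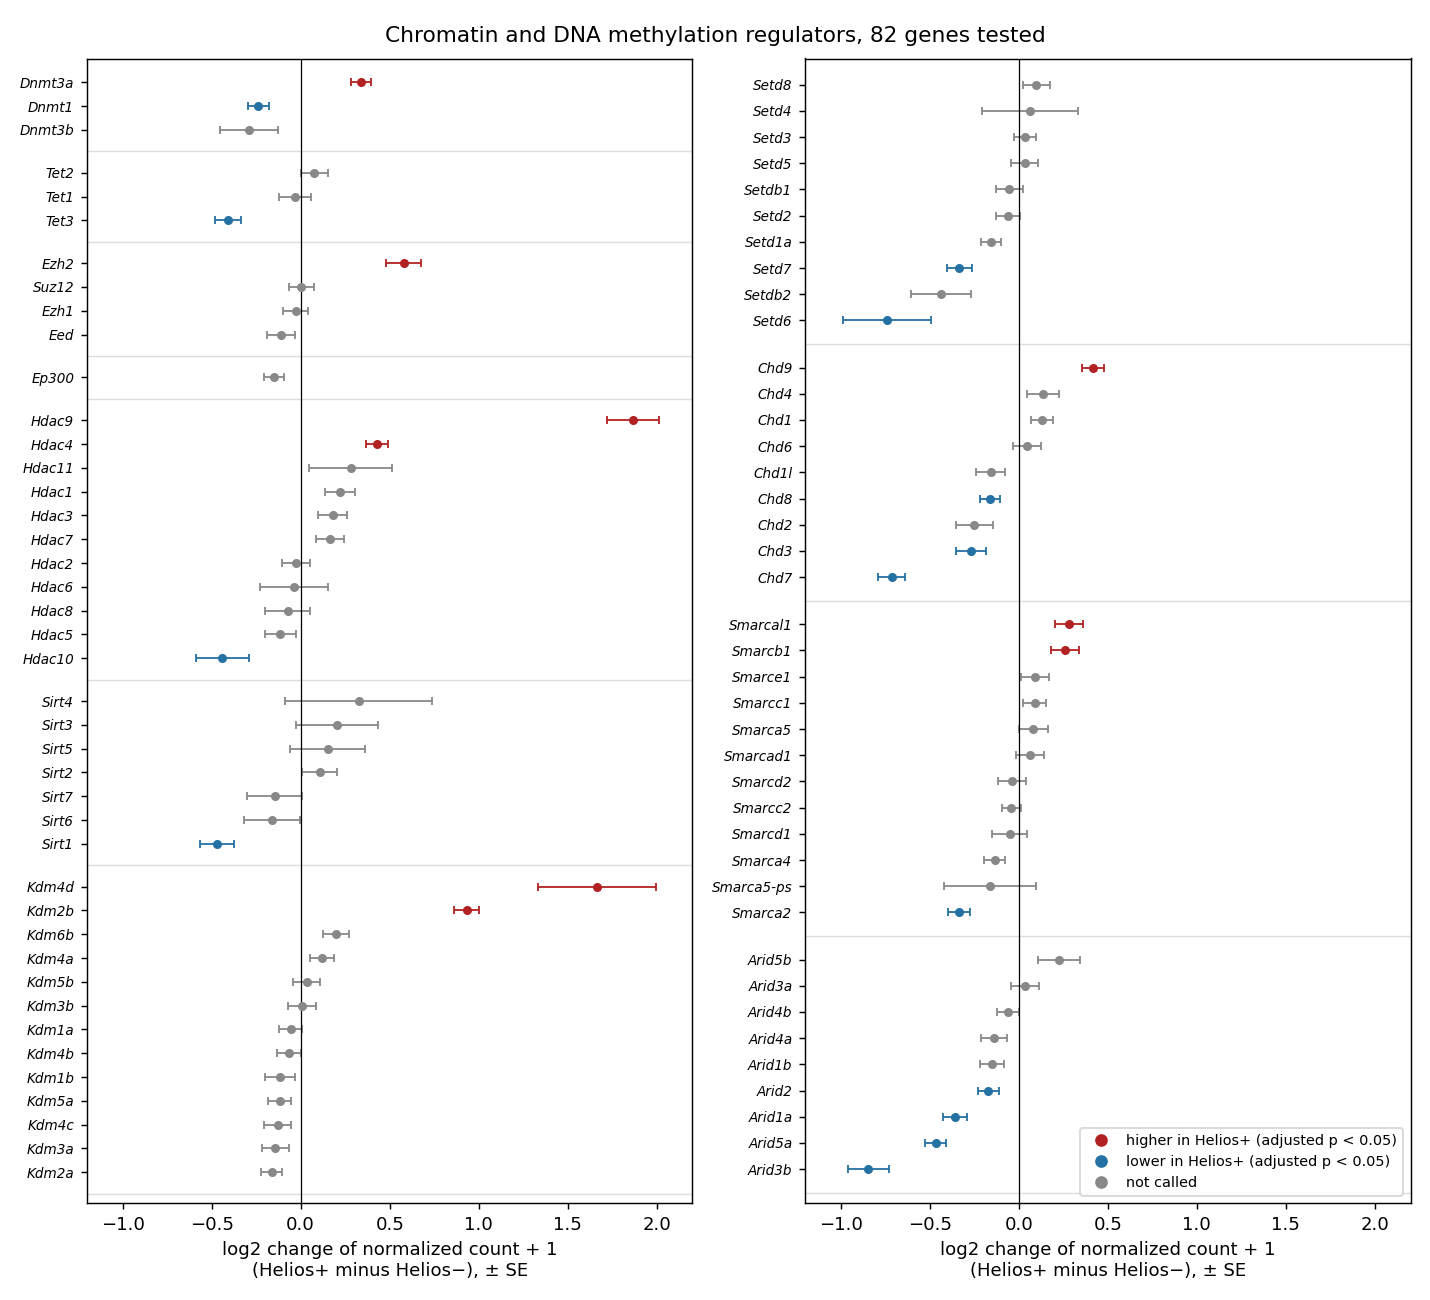
Difference of log2(normalized count + 1), Helios+ minus Helios-, with its standard error for the 82 tested members, grouped by family (Dnmt, Tet, PRC2, Ep300, Hdac, Sirt and Kdm on the left, then Setd, Chd, Smarc and Arid on the right). Red points are the 9 members called higher and blue points the 14 called lower in Helios+ cells, and most grey points lie close to 0.

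**Figure D2:**
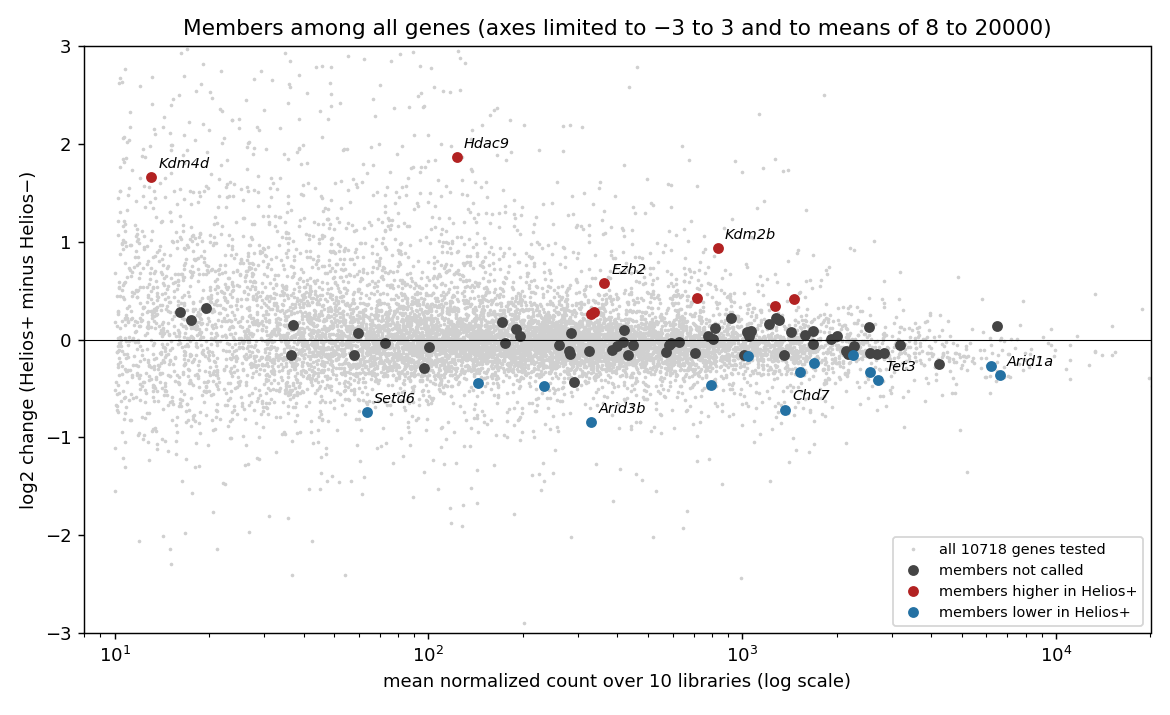
Log2 change (Helios+ minus Helios-) of each tested gene against its mean normalized count on a log scale, with members as large points and all 10718 tested genes in grey, cut at log2 changes of −3 and 3 and at means of 8 and 20000. Of the genes, 67 lie outside these limits. Hdac9 and Kdm4d are the members with a change above 1, and Arid1a, Chd3 and Chd4 are the members with the highest means, of which Chd4 lies above 0.

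Among the enzymes that write and remove DNA methylation, Dnmt3a, which methylates unmodified DNA, rose, while Dnmt1, which copies methylation onto newly made strands, and the dioxygenase Tet3 fell. Dnmt3a (chromosome 12, 3806007 to 3914443, plus strand) had 1445, 1443, 1380.2, 1448 and 1369 normalized counts in the Helios+ libraries 1 to 5, against 1109, 1171, 1049.6, 1149 and 1119 in the Helios- libraries. The lowest Helios+ library stood above the highest Helios- library, and the log2 change was 0.34 ± 0.06 (SE; limma adjusted p = 0.000309). Dnmt1 (chromosome 9, 20907209 to 20959888, minus strand) had 1490.1, 1521, 1543, 1609.8 and 1624 in Helios+ libraries, against 1764, 1816, 1983, 1843 and 1784 in Helios- libraries. Every Helios+ library lay below every Helios- library, the log2 change being −0.24 ± 0.06 (limma adjusted p = 0.00697), which was not called under quantile normalization (adjusted p = 0.0552). Dnmt3b, the other de novo enzyme, was scarce, at 86.3 ± 14.1 in Helios+ and 107 ± 23.0 in Helios- cells (SD, n = 5 each), with overlapping groups (limma adjusted p = 0.22). Without Helios- replicate 3 alone it was called lower (limma adjusted p = 0.0455).

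Of the Tet dioxygenases, Tet3 fell and the others did not pass the test. Tet3 (chromosome 6, 83362373 to 83459084, minus strand) had 2426, 2529, 2212, 2269 and 2196 normalized counts in Helios+ libraries, against 3467, 3227, 2878, 3052 and 2837 in Helios- libraries. No library of one group reached the other, and Helios- cells held 1.33 times the Helios+ mean (log2 change −0.41 ± 0.07, limma adjusted p = 0.00054). Tet2 had 1058 ± 69.9 in Helios+ and 1006 ± 102 in Helios- cells, and Tet1 174 ± 10.5 and 178 ± 14.1, with limma adjusted p of 0.523 and 0.839. The libraries overlapped between groups for both genes.

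Among 13 other tested genes of DNA methylation reading and cofactors, 6 rose and 1, the methyl-CpG binder Mbd2, fell (median log2 change 0.37, against −0.02 over all genes). Uhrf1, which recruits Dnmt1 to freshly replicated DNA, rose while Dnmt1 fell. Uhrf1 averaged 101.5 ± 18.9 normalized counts in Helios+ cells against 35.6 ± 9.78 in Helios- cells, and its log2 change was 1.51 ± 0.19 (limma adjusted p = 1.9e-05). Hells, a remodeller needed for DNA methylation, had 182 ± 22.0 and 102.6 ± 26.7. Zbtb38, a zinc finger reader of methylated DNA, had 873 ± 54.7 and 571 ± 25.6 normalized counts (limma adjusted p = 3.4e-06). Uhrf2, Mbd1 and Gadd45g completed the higher ones.

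The catalytic subunit Ezh2 was the single PRC2 gene that was called, and it rose. PRC2 places the repressive methyl mark of Polycomb on histone H3, with Ezh2 or Ezh1 as its enzyme and Suz12 and Eed as its scaffold. Ezh2 is induced in activated and dividing T cells. Ezh2 (chromosome 6, 47530139 to 47595341, minus strand) had 499, 419.9, 364, 449 and 443 normalized counts in Helios+ libraries, against 353, 258, 275, 292 and 278 in Helios- libraries. Replicate 1 was the highest library of both groups, and the lowest Helios+ library still exceeded the highest Helios- library. The mean was 1.49 times that of Helios- cells (log2 change 0.58 ± 0.10, limma adjusted p = 0.000382). Ezh1 had 621 ± 33.0 in Helios+ and 634 ± 50.5 in Helios- cells, Suz12 809.8 ± 38.6 and 809 ± 72.9, and Eed 369.5 ± 37.1 and 398 ± 25.0, each with overlapping groups and limma adjusted p of 0.815, 0.97 and 0.355. No PRC2 gene was lower by limma, at an unadjusted p under 0.05 (0), in edgeR (0) or in DESeq2 (0).

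Many, but not all, genes of the cell cycle also rose. Of 27 tested, 14 rose and 0 fell in limma (0 at an unadjusted p under 0.05, 0 in edgeR and 0 in DESeq2), where 14.1% of all genes rose. The rest were not called. Among them, Pcna, Mcm2, Mcm4, Mcm7 and Cdt1 had log2 changes between −0.10 and 0.08. Those of Aurkb, Rrm1 and Ccne1 were between 0.19 and 0.31, and those of Ccnb2, Cdc6, Cdk1, Birc5 and E2f1 between 0.65 and 0.95. The summed level of the list was 5667 to 6100 normalized counts in Helios+ and 4015 to 4378 in Helios- libraries. Top2a had 407 ± 55.6 and 182 ± 20.6 as its normalized counts for Helios+ and Helios- cells, and Mcm6 811 ± 41.7 and 489.9 ± 41.1. The part of dividing cells in the difference of Ezh2, Uhrf1 and Hells was not tested.

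The start regions of Ezh2 and Dnmt1 share letters that are scarce among promoters, and are shown because the genes moved in opposite directions. The octamer TTTGGCGC, a form of the site bound by E2F factors of the cell cycle, was searched on both strands in windows of 250 bases before to 50 bases after annotated RefSeq starts (GRCm38.p6). It was found in 0.514% of 32851 windows and in 2 of 92 windows of the 67 members with an entry, namely those of Ezh2 and Dnmt1. The octamer includes CG, and member windows held a median of 24 CG beside 7 over all windows, so these are unlike windows. The related TTTCCCGC was in 1.07% of all windows and in those of Arid1a, Sirt4, Smarcd1 and Suz12. The core TGGGAA, of the kind bound by the Ikaros family to which Helios belongs, was in 25.6% of all windows and in 19 member windows (20.7%), and TGACGTCA, the cyclic AMP response element, in 1.79% and in 0. The windows are chr6:47594981-47595280 for Ezh2 and chr9:20952574-20952873 for the most downstream of 3 annotated starts of Dnmt1, both on the minus strand, with the octamer in capitals at bases 254 and 284 of the window. The octamer marks a match of letters and not a binding site.
Ezh2: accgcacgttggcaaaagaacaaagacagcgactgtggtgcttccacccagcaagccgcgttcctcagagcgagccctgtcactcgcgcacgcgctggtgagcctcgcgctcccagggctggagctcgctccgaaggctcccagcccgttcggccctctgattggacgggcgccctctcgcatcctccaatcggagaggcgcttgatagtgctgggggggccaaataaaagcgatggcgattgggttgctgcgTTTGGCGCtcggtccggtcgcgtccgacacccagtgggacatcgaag
Dnmt1: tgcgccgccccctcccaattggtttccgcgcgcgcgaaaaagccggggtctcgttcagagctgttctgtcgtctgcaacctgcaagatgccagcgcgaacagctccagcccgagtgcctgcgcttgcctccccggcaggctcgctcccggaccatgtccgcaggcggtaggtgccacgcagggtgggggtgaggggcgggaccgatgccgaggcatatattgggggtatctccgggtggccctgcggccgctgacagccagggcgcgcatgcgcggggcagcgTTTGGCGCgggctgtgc

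Ep300, the acetyltransferase that also modifies Foxp3, missed the threshold. It had 2406, 2704, 2572, 2565 and 2496 normalized counts in Helios+ libraries, against 2811, 2712, 2929, 2792 and 2883 in Helios- libraries. The groups did not overlap, by a margin of a few counts between Helios+ replicate 2 and Helios- replicate 2, and the log2 change was −0.15 ± 0.06 (limma adjusted p = 0.0784). It was called lower in DESeq2 and with the replicate block (limma adjusted p = 0.0121). Of 14 other acetyltransferases and acetyl readers, 0 rose (limma; 0 at an unadjusted p under 0.05, 0 in edgeR and 0 in DESeq2) and 4 fell, namely its paralog Crebbp, Kat2b, Myst3 and Bptf. With the replicate block 8 of the 14 were lower and 0 higher, beside 18.5% and 18.9% of all genes tested. Crebbp, Myst3 and Bptf averaged above 1000 normalized counts, a level at which 22.1% of all genes fell in limma. Kat2b had 591 ± 57.1 in Helios+ and 812 ± 122 in Helios- cells (limma adjusted p = 0.0033).

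Hdac9 showed the largest change among the 82 tested members. It belongs with Hdac4, Hdac5 and Hdac7 to the class IIa deacetylases, which shuttle between nucleus and cytoplasm and bind Mef2 factors, and mice without Hdac9 are known for stronger Treg suppression. Hdac9 (chromosome 12, 34047580 to 34917095, minus strand) had 189, 159, 192, 207 and 220.2 normalized counts in Helios+ libraries, against 52.7, 48.7, 40.4, 50.4 and 73.0 in Helios- libraries. The lowest Helios+ library held more than the highest Helios- library, and the mean was 3.65-fold higher in Helios+ cells (log2 change 1.86 ± 0.15, limma adjusted p = 1.64e-07). Hdac4 rose as well, at 807, 895, 788, 789.8 and 825 in Helios+ libraries, against 578, 600.1, 654, 591 and 627 in Helios- libraries. All 5 Helios+ libraries exceeded all 5 Helios- libraries (log2 change 0.43 ± 0.06, limma adjusted p = 0.000103), and 22.4% of the exon bases of Hdac4 overlap another gene. Hdac7, the most abundant class IIa gene per length, had 1284 ± 87.8 in Helios+ and 1149 ± 131 in Helios- cells (limma adjusted p = 0.158). It was called higher with quantile normalization, with the replicate block (adjusted p = 0.0121) and without Helios- replicate 1 (adjusted p = 0.0315). Hdac5 did not pass the test, with a log2 change of −0.11 ± 0.09.

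The annotated starts of Hdac9 held fewer CG than those of most members, though such windows are common among all promoters. Member windows held a median of 24 CG dinucleotides, the target of Dnmt enzymes, beside 7 over all windows, and 7 of the 92 member windows held fewer than 4, as did 31.4% of all windows. The windows of Hdac9, both on the minus strand, were among these 7. They are shown with CG in capitals, first chr12:34917046-34917345, the upstream start with 0 CG, then chr12:34528840-34529139, the downstream start with 3.
Hdac9 upstream start: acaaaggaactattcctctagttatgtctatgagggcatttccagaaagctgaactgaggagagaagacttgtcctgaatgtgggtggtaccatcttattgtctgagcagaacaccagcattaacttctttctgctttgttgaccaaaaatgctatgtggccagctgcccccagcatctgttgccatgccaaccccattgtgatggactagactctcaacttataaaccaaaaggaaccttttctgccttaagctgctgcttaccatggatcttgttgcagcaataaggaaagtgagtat
Hdac9 downstream start: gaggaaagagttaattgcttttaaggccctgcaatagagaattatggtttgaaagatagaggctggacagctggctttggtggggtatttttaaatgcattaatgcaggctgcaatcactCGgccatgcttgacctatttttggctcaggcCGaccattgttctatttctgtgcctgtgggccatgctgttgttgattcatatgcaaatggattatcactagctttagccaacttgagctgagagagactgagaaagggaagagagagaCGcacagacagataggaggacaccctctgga

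Of the 11 Hdac genes, 2 rose (Hdac9 and Hdac4) and 1 (Hdac10) fell. Hdac1, the most abundant Hdac gene per length, had 939.9, 990.3, 983, 1042 and 972 normalized counts in Helios+ libraries, against 717, 820.3, 979.7, 787 and 953 in Helios- libraries. Helios- replicates 3 and 5 lay within or near the Helios+ range, and the log2 change of 0.22 ± 0.08 was not called (limma adjusted p = 0.0659). Leaving out either of these libraries gave a call (adjusted p = 0.0149 without replicate 3 and 0.0398 without replicate 5), as did quantile normalization, edgeR and the replicate block (adjusted p = 0.00634). Hdac2 had 414 ± 25.5 in Helios+ and 422 ± 38.0 in Helios- cells. Hdac3, the enzyme of the Ncor corepressors, had 182 ± 10.5 and 161 ± 7.80 with groups that did not overlap, and a limma adjusted p of 0.137. The tubulin deacetylase Hdac6 had 72.2 ± 16.2 and 73.7 ± 16.7. The polyamine deacetylase Hdac10 was called lower, at 122 ± 25.8 against 165 ± 29.4 (limma adjusted p = 0.0423). Its call was lost in edgeR (adjusted p = 0.0569) and when any library other than Helios+ replicates 1 and 4 and Helios- replicate 3 was left out singly (adjusted p = 0.0571 to 0.114).

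Sirt1 was the single one of 7 sirtuins that was called, and it fell. Sirt1, a nuclear deacetylase known to act on Foxp3 and other factors, had 178, 181, 193, 191 and 239 normalized counts in Helios+ libraries, against 237, 285, 293, 280.5 and 265 in Helios- libraries. Only Helios+ replicate 5 reached into the Helios- range, and the log2 change was −0.47 ± 0.10 (limma adjusted p = 0.00184). Leaving out any 1 library kept the call, with adjusted p between 0.000449 and 0.00701. The cytoplasmic Sirt2 had 197 ± 19.4 in Helios+ and 183 ± 18.9 in Helios- cells, the nucleolar Sirt7 267 ± 50.4 and 296 ± 55.8. No sirtuin was higher by limma, also at an unadjusted p under 0.05 (0), in edgeR (0) or in DESeq2 (0).

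Of 13 histone demethylases, Kdm2b and Kdm4d rose and 0 fell in limma (1 at an unadjusted p under 0.05, 0 in edgeR and 1 in DESeq2). Kdm2b binds unmethylated CpG islands through a CXXC zinc finger and brings a variant Polycomb complex, PRC1, to them. It lies at chromosome 5, 122870665 to 122989823, minus strand. It had 961, 1115, 1141, 1099 and 1168 normalized counts in Helios+ libraries, against 589, 598, 585, 593 and 504 in Helios- libraries. The gap between the groups was wider than the spread within either, and the mean was 1.91-fold higher (log2 change 0.93 ± 0.07, limma adjusted p = 1.29e-07). Its paralog Kdm2a, which also has a CXXC finger, had 1361, 1309, 1186, 1258 and 1284 in Helios+ libraries, against 1455, 1399, 1428, 1477 and 1396 in Helios- libraries. The groups of Kdm2a did not overlap, but its log2 change of −0.16 ± 0.06 missed the threshold (limma adjusted p = 0.0531). It was called lower in DESeq2, with a minimum mean of 50, with the replicate block (adjusted p = 0.0098) and without Helios+ replicate 1 (adjusted p = 0.0418).

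Kdm2b also has CG-rich starts, of which the densest is shown to set beside those of Hdac9. Its 4 windows held 18 to 49 CG, and that of chr5:122900301-122900600 on the minus strand held 49, in capitals.
Kdm2b: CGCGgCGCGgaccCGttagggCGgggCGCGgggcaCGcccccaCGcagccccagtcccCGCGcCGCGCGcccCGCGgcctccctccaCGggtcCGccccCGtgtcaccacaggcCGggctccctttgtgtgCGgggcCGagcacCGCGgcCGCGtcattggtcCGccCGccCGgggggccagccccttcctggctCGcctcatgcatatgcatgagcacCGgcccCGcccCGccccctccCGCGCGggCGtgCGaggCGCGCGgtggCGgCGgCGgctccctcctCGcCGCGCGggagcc

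Kdm4d, a demethylase of histone H3 known mainly from testis, was close to the filter. It had 25.1, 12.5, 23.1, 19.4 and 20.9 normalized counts in Helios+ libraries, against 10.5, 5.29, 4.37, 6.84 and 2.92 in Helios- libraries. The groups did not overlap at these low counts, and the log2 change was 1.66 ± 0.33 (limma adjusted p = 0.00149). Kdm6b, which removes the mark that PRC2 places, had 1401 ± 110.0 in Helios+ cells and 1220.5 ± 91.2 in Helios- cells, and its log2 change was 0.20 ± 0.07 (limma adjusted p = 0.0594). Kdm6b was called higher in edgeR, in DESeq2, with quantile normalization, with the replicate block (adjusted p = 0.00327) and without Helios+ replicate 1 (adjusted p = 0.0289). Kdm5a and Kdm1a, demethylases of histone H3, did not pass the test, at 2053 ± 39.2 and 572 ± 34.8 in Helios+ cells against 2232 ± 159 and 594 ± 27.9 in Helios- cells.

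Of 10 Setd genes, 2 fell and 0 rose in limma (0 at an unadjusted p under 0.05, 0 in edgeR and 0 in DESeq2). Setd7, which methylates histone H3 and many other proteins, had 1268, 1470.3, 1444, 1271 and 1325 normalized counts in Helios+ libraries, against 1795, 1778, 1798, 1575 and 1589 in Helios- libraries. All Helios+ libraries lay below all Helios- libraries, the log2 change being −0.33 ± 0.07 (limma adjusted p = 0.00209). Setd6, known to methylate the NF-kB subunit RelA, had 83.8, 52.7, 29.1, 36.9 and 41.7 in Helios+ libraries, against 92.5, 74.1, 54.6, 101 and 71.0 in Helios- libraries. Its groups overlapped through Helios+ replicate 1, and the call (limma adjusted p = 0.0407) was lost in edgeR (adjusted p = 0.0648) and without any single library other than Helios+ replicate 1 and Helios- replicate 3 (adjusted p = 0.0538 to 0.106). Setd2, the enzyme of the histone H3 mark of transcribed gene bodies, was the most abundant per length, at 3112 ± 199 against 3244 ± 208 (limma adjusted p = 0.587). Setdb2 and Setd1a were called lower in DESeq2 and with the replicate block (adjusted p = 0.0042 and 0.0147). Setdb2 was also called without Helios- replicate 3 (adjusted p = 0.01), Setd1a also with a minimum mean of 50. Setd1a shares 52.3% of its exon bases with other genes. Of 22 other histone methyltransferases, 3 rose and 4 fell, or 5 and 11 with the replicate block. Whsc1 (Nsd2), a methyltransferase of histone H3, had 685 ± 41.0 in Helios+ cells and 396 ± 52.4 in Helios- cells, with a difference on the log2 scale of 0.79 ± 0.09 (limma adjusted p = 4.44e-06). Ehmt2 (G9a) had 850.4 ± 51.6 and 649 ± 27.8. On the lower side, Whsc1l1 (Nsd3), a paralog of Whsc1, had 3638 ± 194 in Helios+ cells and 4660 ± 396 in Helios- cells (limma adjusted p = 0.00191).

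Of 9 tested Chd remodellers, Chd9 rose and Chd7, Chd3 and Chd8 fell. Chd7, an enhancer-bound remodeller whose human gene is mutated in CHARGE syndrome, lies at chromosome 4, 8690406 to 8867659, plus strand. It had 1085, 1082, 876, 1078 and 1077 normalized counts in Helios+ libraries, against 1825, 1734, 1493, 1825 and 1649 in Helios- libraries. Replicate 3 was the lowest library of each group and the groups were far apart, with 1.64-fold more in Helios- cells (log2 change −0.71 ± 0.08, limma adjusted p = 5.46e-06). Chd9 moved the other way, at 1628, 1677, 1668, 1679 and 1699 in Helios+ libraries, against 1356, 1163, 1184, 1336 and 1227 in Helios- libraries. The groups of Chd9 did not overlap either (log2 change 0.42 ± 0.06, limma adjusted p = 0.000107).

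Chd3 and Chd4, the alternative ATPases of the NuRD deacetylase complex, were the most abundant members per length. Chd3 had 6011, 5572, 5136, 6109 and 5238 normalized counts in Helios+ libraries, against 7518, 6729.6, 5909, 7396 and 6243 in Helios- libraries. It was lower in 5 of 5 replicate pairs while the groups overlapped, the log2 change being −0.27 ± 0.08 (limma adjusted p = 0.0305). This call was lost with quantile normalization (adjusted p = 0.549) and on leaving out singly replicate 2, 3 or 5 of Helios+, or replicate 2 or 4 of Helios- (adjusted p = 0.0607 to 0.0887). Chd4 had 6811 ± 612 in Helios+ and 6199.5 ± 669 in Helios- cells (limma adjusted p = 0.292), was higher in 5 of 5 pairs and was called higher with quantile normalization and with the replicate block (adjusted p = 0.00999). Chd8, a partner of beta-catenin, had 2131 ± 33.9 against 2384 ± 81.9 without overlap (limma adjusted p = 0.0448). Its call was lost in edgeR, with no filter, with TMM scaling, with quantile normalization and without any single library other than Helios- replicate 3 (adjusted p = 0.0631 to 0.104). Chd2 was called lower with the replicate block (adjusted p = 9.21e-05) and without Helios- replicate 3 (adjusted p = 0.019). Other genes cover 19.3% of the exon bases of Chd2. Chd1, which reads a histone H3 mark of active promoters, had 2646 ± 125 in Helios+ and 2417 ± 103 in Helios- cells (limma adjusted p = 0.139). It was called higher with quantile normalization, in DESeq2 and with the replicate block (adjusted p = 0.0231). Chd5 was below the filter, with 0 to 3.14 normalized counts in Helios+ and 0 to 4.87 in Helios- libraries.

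Of 12 tested Smarc genes, 2 rose and 1 fell. Smarca2 (BRM) and Smarca4 (BRG1) are the alternative ATPases of the SWI/SNF (BAF) complex. Smarca2 had 2306, 2194, 2169.9, 2389 and 2196 normalized counts in Helios+ libraries, against 2909.8, 3026, 2699, 2809.7 and 2752 in Helios- libraries. The groups did not overlap, and the log2 change was −0.33 ± 0.06 (limma adjusted p = 0.000644). Smarca4 had 2428 ± 108 in Helios+ and 2666 ± 65.9 in Helios- cells, without overlap, and was not called (limma adjusted p = 0.107) except in DESeq2 and with the replicate block (adjusted p = 0.0196). The core subunit Smarcb1 rose, at 358 ± 22.0 against 299 ± 25.8 (log2 change 0.26 ± 0.08, limma adjusted p = 0.0223). That call was lost without replicate 2 or 5 of either group, each left out alone (adjusted p = 0.0513 to 0.0629). Smarcal1, an annealing helicase of stalled replication forks that is not a BAF subunit, had 316, 365, 389, 384 and 392 in Helios+ libraries, against 305, 286, 291, 314 and 319 in Helios- libraries. Its groups overlapped through Helios+ replicate 1 (log2 change 0.28 ± 0.08, limma adjusted p = 0.0137).

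The scaffold subunits Smarcc1 and Smarcc2, the Smarcd1 and Smarcd2 subunits and Smarce1 had log2 changes between −0.05 and 0.09, none called in limma (0 at an unadjusted p under 0.05). Smarcd3, known as the muscle form of its subunit, was below the filter. It had 4.19, 3.35, 12.0, 6.80 and 12.7 normalized counts in Helios+ libraries, against 2.34, 2.12, 0, 1.71 and 0.97 in Helios- libraries. The groups did not overlap, but the counts are few and 48.2% of its exon bases overlap Chpf2 and a microRNA gene. The ISWI ATPase Smarca5 had 1466 ± 103 in Helios+ and 1389 ± 155 in Helios- cells.

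Of the 9 Arid genes, 4 fell and 0 rose in limma (0 at an unadjusted p under 0.05, 0 in edgeR and 0 in DESeq2, 1 with the replicate block). Among all genes tested, 10.7% fell and 14.1% rose. Arid1a, the DNA-binding subunit that with Arid1b defines canonical BAF, lies at chromosome 4, 133679008 to 133756769, minus strand. It had 5455, 5949, 6064, 5742 and 5821 normalized counts in Helios+ libraries, against 6949, 7294, 8098, 7294 and 7571 in Helios- libraries. Every Helios+ library was below every Helios- library (log2 change −0.36 ± 0.07, limma adjusted p = 0.000867). Arid3b, a transcription factor with an AT-rich interaction domain, fell the most of the family. It had 248, 239, 222, 260.4 and 204 in Helios+ libraries, against 527, 403, 322, 426 and 452 in Helios- libraries, where replicate 3 came closest to the Helios+ range. The Helios- mean was 1.81-fold higher (log2 change −0.84 ± 0.11, limma adjusted p = 4.51e-05).

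Arid5a, known in mouse T cells as an RNA-binding protein that stabilises messengers of inflammation, had 688, 675, 680.3, 616 and 685 normalized counts in Helios+ libraries, against 886, 902, 972, 903 and 959 in Helios- libraries. Again no Helios+ library reached a Helios- library (log2 change −0.47 ± 0.06, limma adjusted p = 2.72e-05). Arid2, a subunit of the PBAF form of the complex, was called lower by a narrow margin, at 980.2 ± 35.2 against 1105 ± 56.7 (limma adjusted p = 0.0459). The call was lost in edgeR, with no filter, with TMM scaling, with quantile normalization and without any single library other than Helios+ replicate 4 and Helios- replicate 3 (adjusted p = 0.054 to 0.104). Pbrm1, which defines PBAF together with Arid2, also fell, the log2 change being −0.25 ± 0.06 (limma adjusted p = 0.00834). With the replicate block Arid1b (adjusted p = 0.0108) and Arid4a (adjusted p = 0.0201) were called lower and Arid5b (adjusted p = 0.00153) higher. Without Helios- replicate 1 alone, Arid1b (adjusted p = 0.0351) and Arid5b (adjusted p = 0.0265) were called too.

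The remaining 24 tested members were Sirt3, Sirt4, Sirt5, Sirt6, Hdac8, Hdac11, Kdm1b, Kdm3a, Kdm3b, Kdm4a, Kdm4b, Kdm4c, Kdm5b, Setd3, Setd4, Setd5, Setd8, Setdb1, Chd1l, Chd6, Smarcad1, Smarca5-ps, Arid3a and Arid4b. Their log2 changes ran from −0.16 (Smarca5-ps) to 0.33 (Sirt4), the limma adjusted p from 0.186 to 0.957. In each of them the groups overlapped, and none was called with the replicate block.

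**Figure D3:**
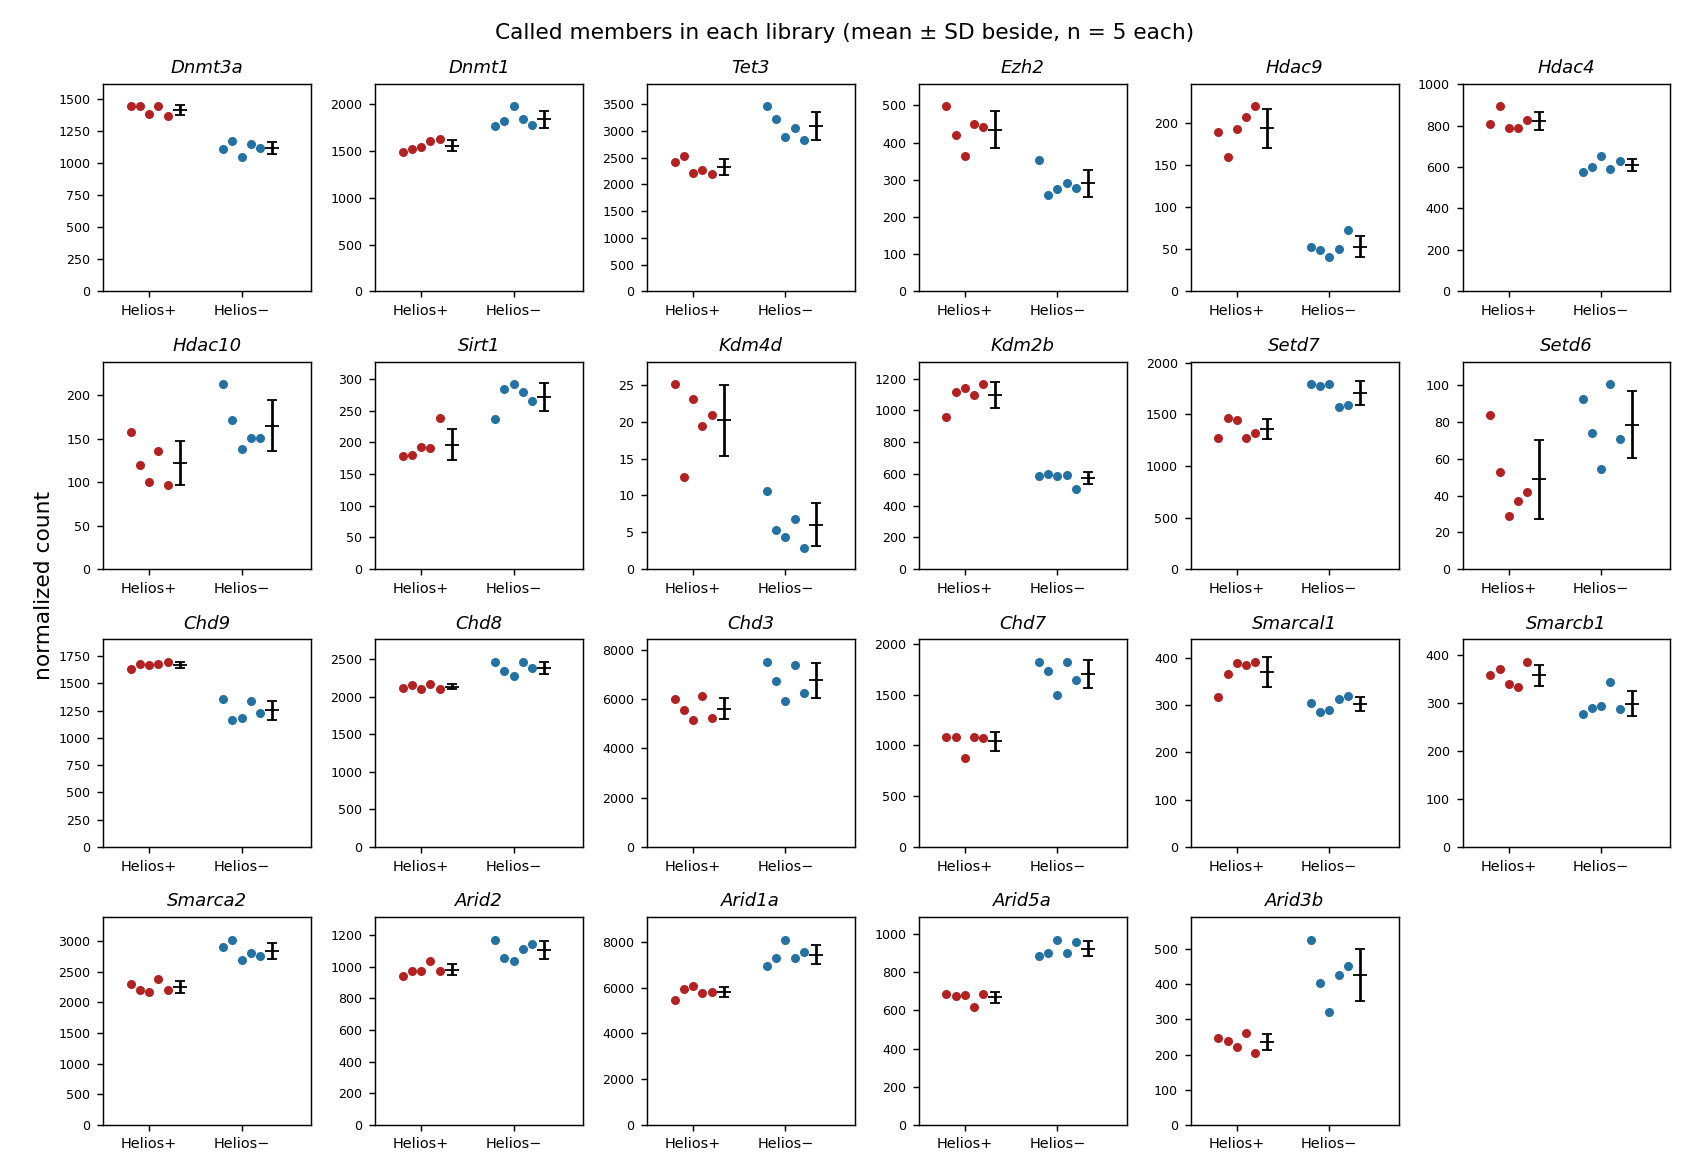
Normalized counts of the 23 called members, on axes from 0, showing the 5 Helios+ libraries as red and the 5 Helios- libraries as blue points and the mean and SD beside them. Hdac9 stands at 159 to 220.2 in Helios+ and 40.4 to 73.0 in Helios- libraries, while the groups of Hdac10, Setd6 and Arid2 overlap among others.

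Related genes, not all of which can replace each other, were compared as shares of normalized counts per kilobase of the longest coding transcript, as a description with no test. Kdm2b made up 58.6% ± 2.86 of the Kdm2a and Kdm2b level in Helios+ and 39.9% ± 1.49 in Helios- cells (SD, n = 5 each). Per kilobase, Kdm2b was thus the larger part in Helios+ libraries and Kdm2a in Helios- libraries. Before division by length, Kdm2a had the higher mean in Helios+ cells too (1280 against 1097 normalized counts). Of the exon bases of Kdm2b, 8.74% overlap other genes. Ezh2 made up 51.3% ± 3.21 of Ezh1 and Ezh2 in Helios+ and 40.9% ± 2.09 in Helios- cells. Hdac9 remained a minor class IIa gene, with 5.02% ± 0.57 of the class in Helios+ and 1.61% ± 0.34 in Helios- cells. Dnmt1 was the main Dnmt gene in both groups, with 61.5% ± 1.34 and 69.0% ± 2.23. Tet3 was the main Tet gene, with 62.6% ± 1.70 and 69.9% ± 0.69. Arid1a exceeded Arid1b, with 79.6% ± 0.65 in Helios+ and 81.8% ± 0.46 in Helios- cells, and Smarca2 and Smarca4 were near parity, with a Smarca2 share of 49.96% ± 0.87 and 53.4% ± 0.56. In each of these 7 comparisons the groups did not overlap. The share of Chd3 beside Chd4 was 43.2% ± 3.95 and 50.1% ± 5.09, with overlapping groups. Groups also overlapped for Hdac1 beside Hdac2 (79.2% ± 0.79 and 76.2% ± 1.24), Hdac7 within class IIa (62.6% ± 1.31 and 65.5% ± 3.44), Smarcc1 beside Smarcc2 (45.1% ± 0.63 and 42.9% ± 1.91) and Smarcd2 among the Smarcd genes (72.3% ± 1.53 and 73.0% ± 1.21).

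**Figure D4:**
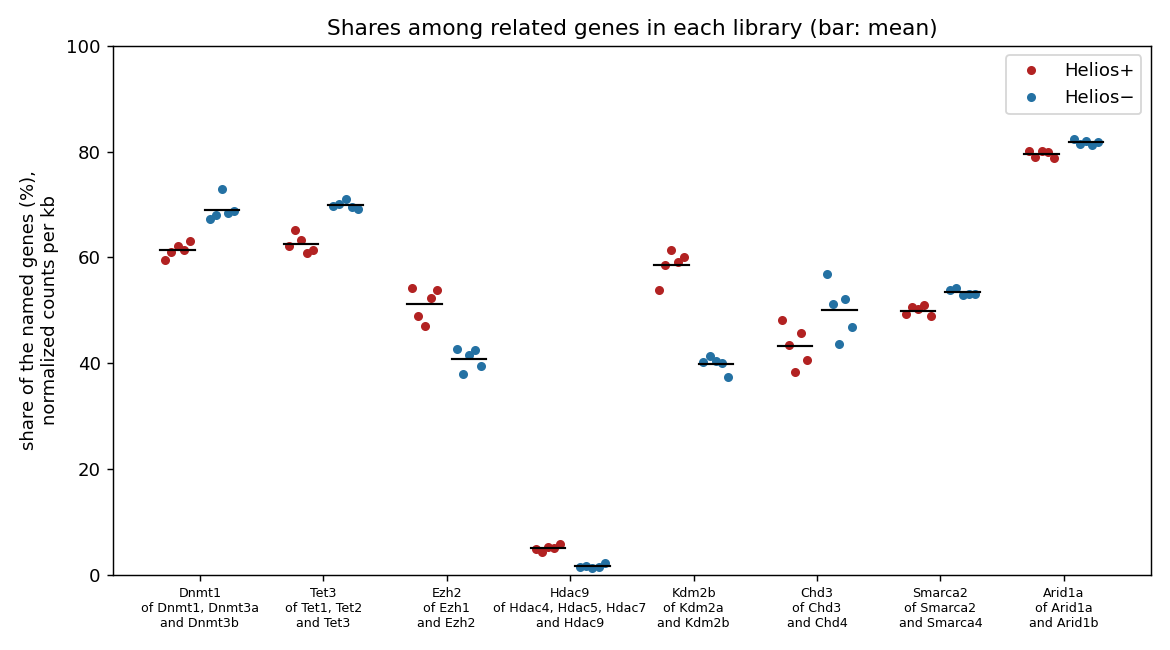
Share of each first-named gene in the summed level of its related genes (percent, normalized counts per kilobase), showing the 5 Helios+ libraries as red and the 5 Helios- libraries as blue points and a bar for the mean. Kdm2b and Ezh2 take larger shares in every Helios+ library than in any Helios- library, while the points of Chd3 overlap.

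Other chromatin genes outside these families gave further context. Of 25 other Polycomb genes, 4 rose (Cbx6, Phc1, Jarid2 and Asxl1) and 0 fell in limma (3 at an unadjusted p under 0.05, 0 in edgeR and 0 in DESeq2, 5 with the replicate block). Cbx6, a reader of the PRC2 mark, had 432 ± 37.5 normalized counts in Helios+ cells against 216 ± 21.3 in Helios- cells (log2 change 0.99 ± 0.09, limma adjusted p = 6.18e-07). Asxl1, a cofactor of a histone H2A deubiquitinase, had 1676 ± 70.8 and 1336 ± 77.9. Of 14 corepressor subunits, 1, the NuRD subunit Mta3, rose and 0 fell in limma (2 at an unadjusted p under 0.05, 0 in edgeR and 1 in DESeq2, 2 with the replicate block). Of 18 other remodeller subunits, Hells and Baz1a rose and Pbrm1, Ino80 and Ep400 fell. The median log2 changes of these lists were 0.03 for Polycomb, 0.03 for corepressors and −0.07 for remodellers.

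Treg genes were abundant in every library, with a summed level of the 8 Treg markers of 28009.6 to 32485 normalized counts in Helios+ and 16079.9 to 20607 in Helios- libraries. Ikzf2, the Helios gene itself, makes up most of this gap, and the other 7 markers summed to 18343 to 21756 in Helios+ and 15662 to 20147 in Helios- libraries, which overlap. Of the 8, Ikzf2, Il2ra, Ctla4 and Tnfrsf18 were called higher and 0 lower in limma (0 at an unadjusted p under 0.05, 0 in edgeR and 0 in DESeq2), while Foxp3, Cd4, Cd3e and Cd3g were not called. Markers of other cells were also detected. The 8 B cell markers summed to 1583 to 2225 in Helios+ and 1818 to 2565 in Helios- libraries, and 1, Ebf1, was called lower and 0 higher in limma (0 at an unadjusted p under 0.05, 0 in edgeR and 0 in DESeq2). With the replicate block, 4 of the 8 B cell markers were called lower. The 10 markers of macrophages and dendritic cells summed to 347 to 654 and 269 to 419, with 1 of 9 tested, Csf1r, higher, or 2 with the replicate block. The 7 markers of CD8 T and NK cells summed to 498 to 576 and 492 to 596, with 1, Nkg7, higher, and 1 lower with the replicate block. The 3 markers of red cells and platelets in the table summed to 3.35 to 18.8 and 4.23 to 21.1, and the 1 tested was not called (limma; 0 at an unadjusted p under 0.05, 0 in edgeR and 0 in DESeq2). None of the markers analysed was at 0 in every library, and their part in the members' differences was not tested.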

How the data were processed

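RNA-seq of 5 Helios+ and 5 Helios- Treg samples was analysed. Per the labels' protocols, libraries were made from total RNA with a stranded low-input kit. The submitters' processing notes name mm10, HISAT2 2.0.4, HTSeq and DESeq2 without roles, while the annotation and strand setting are not stated there. The authors deposited normalized counts, a signal of reads divided by 1 size factor per library: 100% of the values were whole multiples of 1 step per library (tolerance 0.001). The members, lists and tests were chosen with earlier results of these data known.

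Genes with a mean of at least 10 (10718 genes) were tested with limma 3.58.1 (R 4.3.3, trend and robust) on log2(normalized count + 1), group as the only term, adjusted p under 0.05. edgeR 4.0.16 and DESeq2 1.42.0 on recovered reads were alternatives, and edgeR called 1563 genes higher and 1074 lower. The fits were tested on simulated data with changes larger than those of most called members and with no pairing. The simulation therefore does not cover the smaller changes. Coordinates and exon overlap are from GENCODE M21 (GRCm38), which held all 84 members. Named members were those called, Dnmt, Tet and PRC2 genes, Ep300, and the most abundant and smallest-p members of each other family. Others were named after their values were seen. Equal replicate numbers deviated together (correlations of 0.15 to 0.48 over 5 pairs, above the minimum of 0.1), so they were taken as pairs. Libraries of unequal number correlated at −0.41 to 0.12. The minimum was also passed by Helios+ replicate 3 with Helios- replicate 5 (0.117) and by Helios+ replicate 5 with Helios- replicate 3 (0.113). It therefore does not by itself tell pairs from other combinations. The pairing was inferred from these correlations, as the sample titles give only the numbers. Promoter windows are from RefSeq (GRCm38.p6).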

Additional observations from a re-analysis of the deposited data

Results flagged for a closer look

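In groups of 5 libraries, 6 values among 74 groups of named members lay apart from the other 4 of their group by more than Dixon's 95% limit (0.71 of the range), which chance gives in about 1 in 20 groups. Arid5a was low in Helios+ replicate 4 (616 normalized counts, others 675 to 688). Chd7 was low in Helios+ replicate 3 (876, others 1077 to 1085), and so was Setd2 (2771, others 3128 to 3271). Kdm2b was low in Helios- replicate 5 (504, others 585 to 598). Sirt1 was high in Helios+ replicate 5 (239, others 178 to 193), and Smarcb1 in Helios- replicate 4 (344, others 278 to 295).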

How the results depend on the processing

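Of the 37 named members, none changed direction with a call under any alternative, and 17 of the 23 calls were kept whichever single library was left out; Arid2, Chd3, Chd8, Hdac10, Setd6 and Smarcb1 were not. Leaving out 1 library gave 8 to 11 members higher and 9 to 17 lower, against 9 and 14. The lower count was 9 when the omitted library was replicate 2, 3 or 5 of Helios+, or replicate 2 or 4 of Helios-. It was 17 without Helios- replicate 3, the library with the highest Rn45s share (18.6%). Without Helios- replicate 1, which had the lowest share (8.54%), 11 members were higher and 11 lower. Whether the Rn45s share bears on the calls was not tested. Over all genes, leaving out 1 library gave 1332 to 1614 higher and 927 to 1293 lower. Quantile normalization called 15 members higher. The replicate block, fitted because libraries of equal replicate number deviated together, called 15 members higher and 22 lower, and 1979 genes lower against 1143. The cause of these differences was not tested. Pseudocounts of 0.5 and 5 changed no call of a named member. Kdm4d, Chd5 and Smarcd3 rest on few reads per library.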
